A study of Mus musculus with 27 samples.

Results

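The transcripts of 10 proteins of the endoplasmic reticulum (ER) folding machinery and of its stress response are described here in mouse liver metastases. The 10 genes were taken by symbol from the target table: Hspa5, Hsp90b1, Calr, Canx, Pdia3, Pdia4, Pdia6, Xbp1, Dnajb9 and Herpud1. All 10 were among the 19615 measured targets. They were picked by name and by no measured value, though with earlier results of these data known. MC38 cells, a mouse colon carcinoma line, had been transduced with an shRNA against CMTM6 or with a non-targeting shRNA and injected into the portal vein of C57BL/6 mice aged 2 months. CMTM6 is a membrane protein known for keeping PD-L1 on the cell surface, and the study asked whether lowering it in the tumour cells alters the transcriptome of the metastases. Tissue sections were profiled with the GeoMx whole-transcriptome probe panel, which counts tags cut from probes bound to RNA within a chosen area. The segments described here are the desmin-negative remainder of each area, desmin being a filament protein of stellate cells and myofibroblasts, and the study stained pan-cytokeratin to mark the tumour cells. There were 13 regions labelled CMTM6 knockdown and 14 control regions, and both sets came from MC38 metastases in the same mouse strain. No label says which mouse a region came from, and there were more regions than mice. Some regions therefore came from the same animal, and every p-value below is too small and every interval too narrow.

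The unfolded protein response is the signalling that a cell switches on when unfolded proteins gather in the ER. Hspa5, also called BiP or Grp78, is the Hsp70 chaperone of the ER lumen and keeps the sensors Ern1 (IRE1), Eif2ak3 (PERK) and Atf6 inactive while it is bound to them. Cleaved ATF6 and the protein made from spliced Xbp1 mRNA then raise the genes of chaperones and of ER-associated degradation, and PERK lets the ATF4 protein accumulate, which raises amino acid and stress genes. Secretory cells such as hepatocytes and plasma cells carry a high basal level of this machinery.

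The sequence through which ATF6 and XBP1 act on chaperone genes is the ER stress response element (ERSE), CCAAT and CCACG with 9 bases between them. It was searched on both strands in the 250 bases before each gene's RefSeq start (GRCm38.p6 table), together with ERSE-II (ATTGG, 1 base, CCACG), the XBP1 element TGACGTGG and the amino acid response element that ATF4 binds (TGATG, 1 base, AA). All 10 genes had a promoter window. ERSE was found in 5 of the 10 (Hspa5, Hsp90b1, Calr, Canx and Pdia6), against 0.155% of the 15494 measured genes with a window. ERSE-II was found in Herpud1 alone among the 10, against 0.0452% of measured genes, so 6 of the 10 genes carried one form or the other. The 10 were picked as genes of this response, for which these motifs were described. Their excess over all measured genes is therefore no independent result. The ERSE and ERSE-II matches of those 6 genes are shown here with 5 bases on each side and the fixed letters of the motif in capitals. Sequences are read 5′ to 3′ along the gene's strand, and in the second Hsp90b1 match and in Calr the motif lies on the opposite strand.
Hspa5, chr2:34772020-34772048, plus strand: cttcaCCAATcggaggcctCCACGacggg
Hsp90b1, first match, chr10:86705633-86705661, minus strand: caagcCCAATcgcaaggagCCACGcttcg
Hsp90b1, second match, chr10:86705528-86705556, minus strand: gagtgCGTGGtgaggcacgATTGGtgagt
Calr, chr8:84847070-84847098, minus strand: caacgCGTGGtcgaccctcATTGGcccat
Canx, chr11:50325795-50325823, minus strand: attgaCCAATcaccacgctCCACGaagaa
Pdia6, chr12:17266486-17266514, plus strand: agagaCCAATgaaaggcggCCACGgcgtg
Herpud1, ERSE-II, chr8:94386372-94386392, plus strand: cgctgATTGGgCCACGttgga

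The ERSE nearest to a start was that of Hspa5, at -65 to -47 from the RefSeq start. It falls inside the longer GENCODE gene span, which begins at base 34771970 of chromosome 2. The ERSE matches of the others lay between -212 and -80, and the ERSE-II of Herpud1 lay at -52 to -42. Herpud1 also held the amino acid response element, at -112 to -105 on the opposite strand, a match found in 3.18% of measured genes. The XBP1 element was in none of the 10 windows and in 0.781% of measured genes. For Pdia3, Pdia4, Xbp1 and Dnajb9 none of these letter patterns occurred in the window, which says nothing of sites elsewhere. A letter match is a description of the sequence and not evidence of binding.

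Levels are given on a common scale, on which all regions share 1 median over the targets, because the upper quartile of the deposited signal was 1.46-fold higher in control regions and had been equalised within each label alone. Region totals, in the smallest step by which deposited values of a region differ, were 4223034 to 19827296 in knockdown-labelled and 9977867 to 26328208 in control regions. Cmtm6, the targeted gene, read 417 to 722 (median 607) in knockdown-labelled and 511 to 701 (median 641) in control regions, and its log2 difference was -0.06 (SE 0.07, limma adjusted p = 0.631). The probe signal therefore did not separate the labels, and the regions are called knockdown-labelled throughout. Of 13 epithelial markers only Krt8 was above background, at 211 to 365 in knockdown-labelled and 216 to 387 in control regions. The 14 fibroblast or stellate cell markers summed to 18587 to 35346 in knockdown-labelled and 15277 to 45875 in control regions, with Des itself at 188 to 249 in knockdown-labelled and 195 to 273 in control regions. No marker was at 0 in any region. The segments were mixed tissue, so fewer cells of a type and less RNA per cell cannot be told apart in any value below.

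None of the 10 genes differed between the labels beyond the threshold of the limma test, an adjusted p under 0.05, against 1.31% of all 19615 targets called higher and 2.58% called lower in knockdown-labelled regions. At an unadjusted p under 0.05, 1 of the 10 was lower (Canx) and none higher, beside 3061 lower and 1013 higher targets in all. At an unadjusted p under 0.05 with a fold over 1.5, none of the 10 was called, beside 0.209% of targets higher and 0.117% lower. The differences ranged from -0.19 for Canx to 0.10 for Pdia3, with 3 above and 7 below 0. Their median was -0.03, beside -0.04 over all targets. In the plot of values by region the labels overlap for each gene, and from 9 to 13 of the 13 knockdown-labelled regions lay inside the control range.

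**Figure D1:**
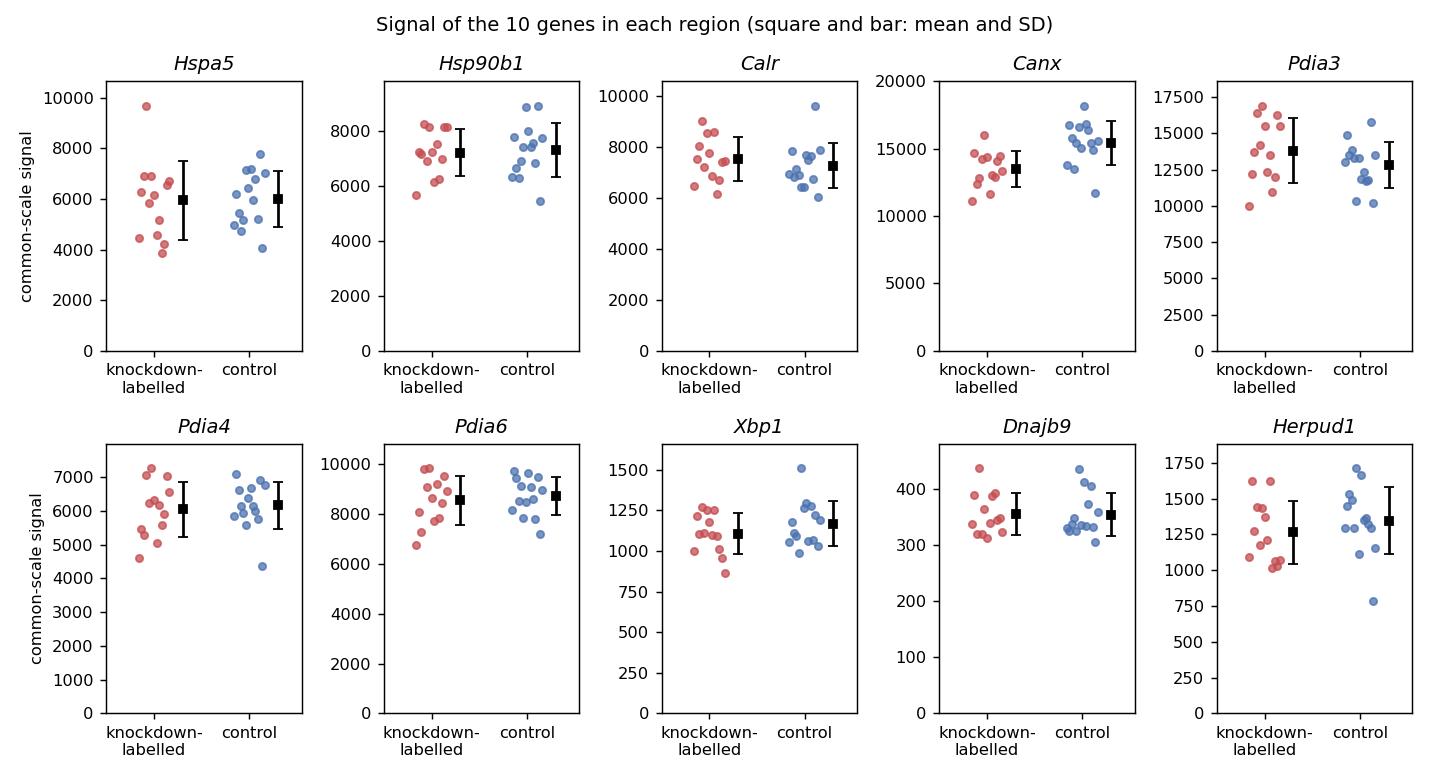
Common-scale signal of the 10 genes (vertical axes, each from 0) in 13 knockdown-labelled regions (left, red) and 14 control regions (right, blue), with the mean and SD of each label as a square and bar. The clouds overlap in each panel, and the widest spread is that of Hspa5, with 1 knockdown-labelled region at 9692.

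Hspa5 and Hsp90b1 are the ER members of the Hsp70 and Hsp90 families, and Hsp90b1 (Grp94) folds Toll-like receptors and integrins among its clients. Hspa5 read 3855 at the lowest, 6168 at the median and 9692 at the highest in knockdown-labelled regions, and 4058, 6074 and 7764 in control regions. Its highest reading was in knockdown-labelled region 4 and its lowest in region 10 of the same label, and the other 11 knockdown-labelled regions lay within the control range. The means were 5948 ± 1558 (SD, n = 13) in knockdown-labelled and 6004 ± 1105 (SD, n = 14) in control regions, and the log2 difference was -0.03 (SE 0.11, limma adjusted p = 0.906, 95% interval -0.27 to 0.20). Without knockdown-labelled region 4 the difference was -0.10 (SE 0.10, limma adjusted p = 0.642). Hspa5 correlated with the hepatocyte marker list over regions (r = 0.49 in all, 0.66 in knockdown-labelled and 0.14 in control regions), and with that list as a covariate its difference was -0.25 (limma adjusted p = 0.251). Hsp90b1 read 5683, 7259 and 8283 in knockdown-labelled regions, and 5476, 7437 and 8945 in control regions. All knockdown-labelled regions lay inside the control range for Hsp90b1. Its log2 difference was -0.01 (SE 0.08, limma adjusted p = 0.943, 95% interval -0.17 to 0.14).

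Calr (calreticulin) and Canx (calnexin) are the lectin chaperones, soluble and membrane-bound, that hold newly made glycoproteins until their glucose is trimmed. Calr read 6166, 7445 and 9046 in knockdown-labelled regions, and 6045, 7060 and 9639 in control regions. Its ranges were nested, with a log2 difference of 0.05 (SE 0.07, limma adjusted p = 0.727, 95% interval -0.09 to 0.19). Canx read 11101, 13308 and 15974 in knockdown-labelled regions, and 11722, 15489 and 18186 in control regions. It was the only 1 of the 10 whose 95% interval excluded 0: the means were 13459 ± 1345 (SD, n = 13) in knockdown-labelled and 15410 ± 1622 (SD, n = 14) in control regions, and the log2 difference was -0.19 (SE 0.07, limma adjusted p = 0.0987, 95% interval -0.34 to -0.05). The T or NK cell markers were added as a covariate, chosen after the data were seen because Canx correlated with that list (r = -0.57). That r was -0.88 in knockdown-labelled and -0.28 in control regions. The Canx difference was then -0.06 (limma adjusted p = 0.738), in a fit that called 0 of all targets. Without control region 13, the lowest control region for 9 of the 10 genes, the Canx difference was -0.22 (SE 0.06, limma adjusted p = 0.0288), which passed the threshold. That fit called 1442 of all targets, beside 763 with every region kept. Under 6 other scalings of the regions the Canx difference ranged from -0.20 to -0.05 and was called under none.

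Pdia3, Pdia4 and Pdia6 are protein disulfide isomerases, which make and reshuffle disulfide bonds, and Pdia3 (ERp57) works with calreticulin and calnexin on glycoproteins. Pdia3 read 10007, 13698 and 16927 in knockdown-labelled regions, and 10217, 13175 and 15824 in control regions. Of the knockdown-labelled regions 9 of 13 lay inside the control range, the fewest of the 10 genes, and the log2 difference was 0.10 (SE 0.08, limma adjusted p = 0.524, 95% interval -0.07 to 0.27). Under quantile normalization, which forces the same distribution of values on every region, Pdia3 alone of the 10 was called, higher by 0.22 (SE 0.05, limma adjusted p = 0.0188), beside 2.43% of all targets called higher and 2.68% lower. Pdia4 read 4617, 6163 and 7265 in knockdown-labelled regions, and 4380, 6146 and 7099 in control regions, with a log2 difference of -0.03 (SE 0.08, limma adjusted p = 0.861, 95% interval -0.18 to 0.12). Pdia6 read 6740, 8646 and 9831 in knockdown-labelled regions, and 7207, 8787 and 9740 in control regions, with a log2 difference of -0.03 (SE 0.07, limma adjusted p = 0.824, 95% interval -0.17 to 0.10). For both genes the medians of the labels were closer than the lowest and highest regions of either label.

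Xbp1 encodes the transcription factor of the IRE1 branch, and the probe signal is that of the gene as a whole and does not tell spliced from unspliced mRNA. It read 862, 1105 and 1270 in knockdown-labelled regions, and 985, 1144 and 1509 in control regions. The lowest reading came from knockdown-labelled region 13, which also had the lowest total of all 27 regions, and the highest from control region 6. The log2 difference was -0.08 (SE 0.07, limma adjusted p = 0.544, 95% interval -0.21 to 0.06), and 0.06 (limma adjusted p = 0.805) with the log2 total as a covariate. Dnajb9 (ERdj4), an Hspa5 cochaperone that is a target of XBP1 and restrains IRE1, read 313, 345 and 437 in knockdown-labelled regions, and 306, 337 and 435 in control regions. Its log2 difference was 0.00 (SE 0.06, limma adjusted p = 0.980, 95% interval -0.11 to 0.12). Dnajb9 lay nearest to background of the 10, at 1.80 times the background limit of 197, so probe background is a larger share of its signal than for the other genes. Herpud1, a membrane protein of the ER degradation complex, read 1017, 1210 and 1624 in knockdown-labelled regions, and 783, 1336 and 1712 in control regions. Every knockdown-labelled region lay inside its control range, and the log2 difference was -0.09 (SE 0.09, limma adjusted p = 0.640, 95% interval -0.27 to 0.10).

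The scaling of the regions turned the sign of some of these differences. On the values as deposited, all 10 genes were called lower, by 0.41 (Pdia3) to 0.70 (Canx) on the log2 scale, beside 98% of all targets lower and 0.0714% higher, with a median over all targets of -0.54. Under scaling by the upper quartile, the total, TMM, a housekeeping list or quantile normalization, Hspa5, Hsp90b1, Pdia4 and Pdia6 were above 0 by at most 0.06 instead of below it. Canx, Xbp1 and Herpud1 were below 0, and Calr, Pdia3 and Dnajb9 above 0, under each of those scalings and after background subtraction. What is measured on such a scale is a gene's place among the targets of its region, so that a shift shared by every transcript would not appear.

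**Figure D2:**
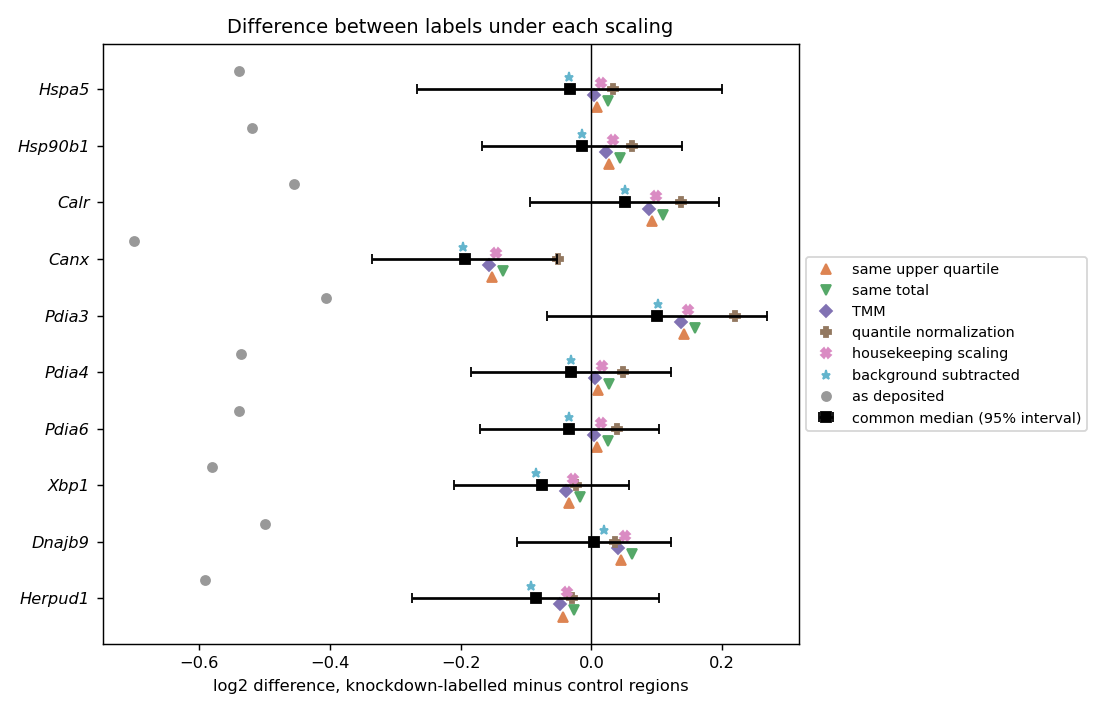
Log2 difference, knockdown-labelled minus control regions, of each of the 10 genes (rows) under 8 scalings (marker shapes); the black square and bar are the common-median value and its 95% interval. Grey points on deposited values sit between -0.70 and -0.41, away from the other scalings, which cluster around 0 for most genes, while Canx lies below 0 and Pdia3 above it throughout the rest.

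Among themselves the 10 genes differed in their spread over regions. Hspa5 had the widest spread within a label, with an SD of 0.32 on the log2 scale, above 88.5% of the 1000 targets of nearest level. Its highest region was 2.51 times the lowest among knockdown-labelled and 1.91 times among control regions. Herpud1 came next with an SD of 0.26, above 86.0% of its 1000 neighbours in level, and its highest control region was 2.19 times the lowest. The lowest SDs were those of Dnajb9, Pdia6 and Canx, all 0.15. For Canx and Pdia6 this exceeded only 9.6% and 8.1% of targets of like level, and for Dnajb9 39.6%. The other 5 genes had SDs of 0.17 to 0.21, at or below the middle of targets of like level.

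Single regions stood at the ends of these ranges. Knockdown-labelled region 4 was the highest of its label for Hspa5, Hsp90b1, Calr, Xbp1 and Dnajb9, and 7 of its 10 genes ranked in the top 3 of all 27 regions. The same region had the lowest Cmtm6 of all regions, at 417, and the second highest hepatocyte marker sum, at 10603; their part in its high readings was not tested. Control region 13 was at the other end, with 9 of the 10 genes among the bottom 3 of 27, followed by knockdown-labelled region 1 with 5. Both regions also ranked at or next to the bottom for the summed housekeeping list. Control region 6 had the highest Xbp1, Dnajb9 and Herpud1 of its label, at 1509, 435 and 1712, but ranked next to last among controls for Calr, Pdia3 and Pdia4. That region had the highest hypoxia sum of all 27, at 143343, and the highest sum of the PERK and ATF4 branch, at 36166.

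On the common scale most pairs of the 10 genes correlated positively over regions, and the closest ties were among the folding proteins. Pearson's r of log2 values, centred within each label over 27 regions, was positive for 44 of 45 pairs, with a median of 0.51. At equal totals 37 of 45 pairs were positive, with a median of 0.29 and a lowest r among folding proteins of -0.42, and at equal upper quartiles 38 were, with a median of 0.33. Pdia4 and Pdia6 were the closest pair, at 0.93 over all regions, 0.96 within knockdown-labelled and 0.88 within control regions. Each was the other's nearest of all targets above background. Hspa5 and Hsp90b1 stood at 0.82 over all regions (0.79 in knockdown-labelled, 0.90 in control), and Hspa5 was second nearest to Hsp90b1 among all those targets. For the rest, the nearest of the 10 ranked 10 (Hspa5), 59 (Pdia3), 63 (Xbp1), 69 (Dnajb9), 83 (Calr), 429 (Herpud1) and 1203 (Canx). The median r of a gene with the others of the 10 ran from 0.23 (Dnajb9) to 0.66 (Hsp90b1). With 10789 other targets above background it ran from 0.01 (Dnajb9) to 0.42 (Pdia4). For Canx the 2 medians were 0.51 and 0.38. The only negative pair on the common scale was Pdia3 with Dnajb9, at -0.20 over all regions (-0.01 in knockdown-labelled, -0.44 in control). All these points share libraries, scaling factors and, in part, mice.

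**Figure D3:**
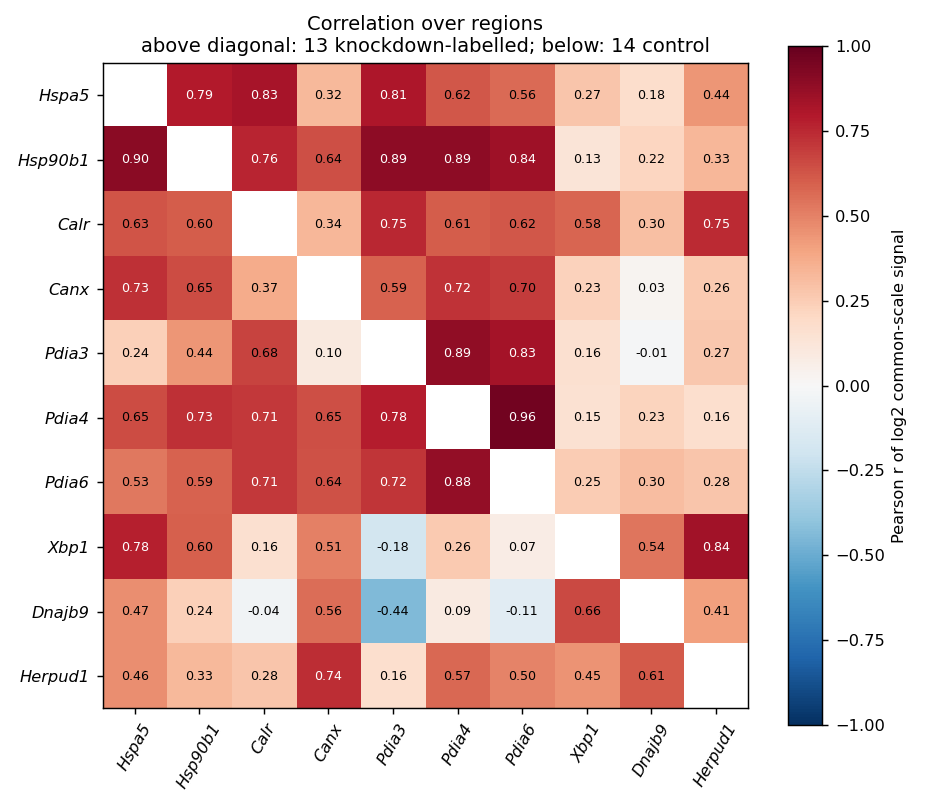
Pearson r between each pair of the 10 genes over 13 knockdown-labelled regions (above the diagonal) and 14 control regions (below), on log2 common-scale values; red is positive and blue negative. Pdia4 with Pdia6 is deep red on both sides, at 0.96 in knockdown-labelled and 0.88 in control regions, and Pdia3 with Dnajb9 is pale or blue, at -0.01 and -0.44 in the same order of labels.

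A split into 7 folding proteins and the stress-response genes Xbp1, Dnajb9 and Herpud1, made after the values were seen, described the pattern. The 21 pairs of folding proteins had a median r of 0.66 and the 3 pairs of response genes a median of 0.60, while the 21 pairs across had 0.32, with a range of -0.20 to 0.54. Setting each region to the same total gave 0.39, 0.53 and 0.10 for the 3 medians in that order. Regressing the log2 total out gave 0.62, 0.28 and 0.10. Regressing out the ratio of probe background to upper quartile gave 0.45, 0.61 and 0.31, with a lowest r of -0.30 among folding proteins. The split also follows probe signal: label means were 5948 to 15410 for the folding proteins and 354 to 1345 for the response genes. Function and signal level cannot be told apart in it. The genes also differed in how they ran with high-level targets at large. Over 3036 targets with a mean level above 1000, the median r was 0.60 for Pdia4, 0.57 for Pdia3, 0.35 for Hspa5, 0.31 for Herpud1, 0.08 for Xbp1 and -0.01 for Dnajb9. The mean of the housekeeping list correlated at 0.74 with Pdia3 and 0.73 with Pdia4, 0.55 with Hspa5 and 0.51 with Herpud1, against 0.22 with Xbp1 and -0.02 with Dnajb9.

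Measures of each region's depth and background went with different genes. Xbp1 correlated with the log2 total at 0.74 and Herpud1 at 0.65, while Pdia3 did at 0.12. The ratio of background to upper quartile, a measure of how far signal stands above probe background, correlated with Pdia3 at -0.81 and Pdia4 at -0.78, and with Xbp1 at -0.11. Among the gene lists, the PERK and ATF4 branch ran with Herpud1 (0.66) and Dnajb9 (0.64) over all regions. For Calr (-0.01) and Pdia3 (0.02) the value over all regions joined opposite signs within labels. Calr had 0.57 in knockdown-labelled and -0.23 in control regions, and Pdia3 0.56 and -0.26. Herpud1 had 0.44 and 0.77, and Dnajb9 0.54 and 0.73, in the same order of labels. Hypoxia genes ran with Dnajb9 (0.56) and Xbp1 (0.53). With Calr they had -0.24 over all regions, 0.34 in knockdown-labelled and -0.43 in control regions. Of the cell type lists, hepatocyte markers had their highest r with Hspa5 (0.49), and between -0.18 and 0.19 with the other 9 genes. Within labels these values split: for Hspa5 r was 0.66 in knockdown-labelled and 0.14 in control regions, for Calr 0.52 and -0.36, and for Pdia3 0.38 and -0.54, in the same order of labels. Plasma and B cell markers had -0.62 and T or NK cell markers -0.57 with Canx, and fibroblast markers -0.56 with Herpud1. Endothelial and epithelial markers each had -0.58 with Pdia3, and epithelial markers -0.56 with Calr. Only 3 of 12 plasma and B cell, 2 of 12 endothelial and 1 of 13 epithelial markers were above background, so probe background weighs in those list means. The part of depth, background and cell mixture in these values was not tested.

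The targets most like 4 of the genes over the 27 regions, out of 10789 above background, differed from gene to gene. For Hspa5 they were Fkbp11 (r = 0.88), an ER prolyl isomerase, Ppa1 (0.86), a pyrophosphatase, Hyou1 (0.85), the Hsp110-type nucleotide exchange factor for Hspa5, Rrbp1 (0.84), a ribosome-binding ER membrane protein, and Spcs2 (0.84), a signal peptidase subunit. For Dnajb9 the nearest was Edem1 (0.78), a lectin that steers misfolded glycoproteins to degradation, followed by Arap2 (0.76), Clcn3 (0.76), Adm2 (0.75) and Got1 (0.74). For Xbp1 they were Slc30a9 (0.75), Tab2 (0.75), Ets2 (0.72), Pfkp (0.71) and Abcc4 (0.71). For Herpud1 they were Mapkapk5 (0.85), Ciapin1 (0.85), Btg3 (0.84), Myo9b (0.84) and Slc7a6 (0.83). Hyou1 read 1231 to 1931 (median 1571) in knockdown-labelled and 1037 to 2099 (median 1602) in control regions. Its ratio to Hspa5 within a region, on which scaling has no effect, was 0.199 to 0.319 in knockdown-labelled and 0.220 to 0.307 in control regions.

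**Figure D4:**
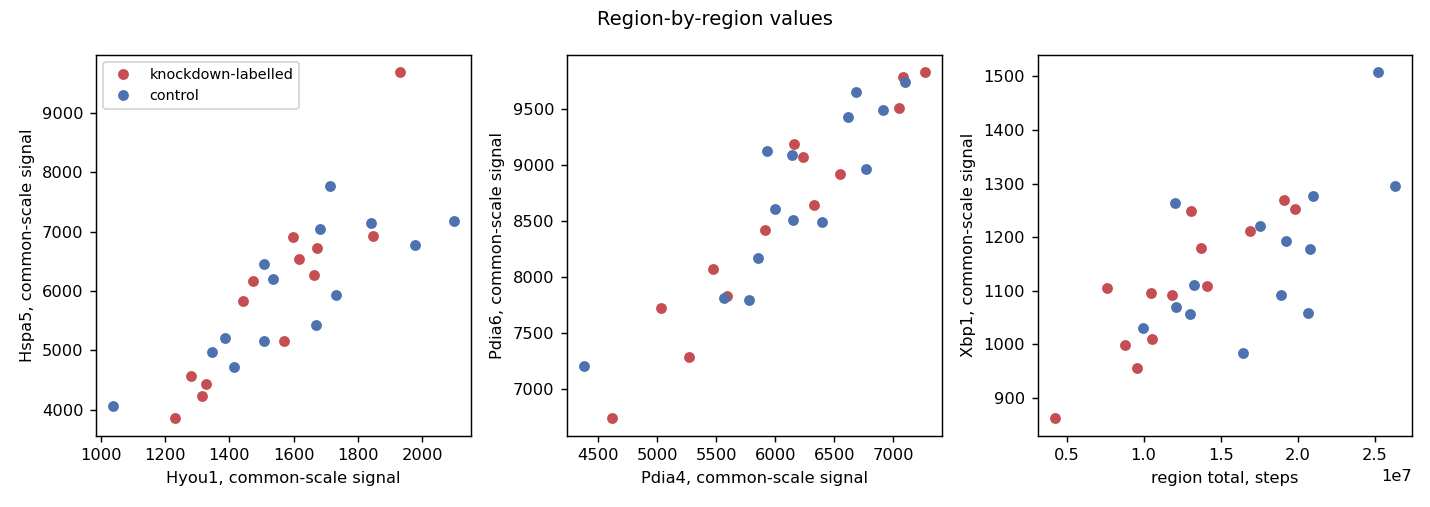
Common-scale signal in 13 knockdown-labelled (red) and 14 control (blue) regions: Hspa5 against Hyou1 (left), Pdia6 against Pdia4 (middle), and Xbp1 against the region total in steps (right). In the left and middle panels both labels lie along 1 line, with r = 0.85 and 0.93 after centring within labels, and in the right panel the lowest Xbp1, 862, belongs to the knockdown-labelled region with the lowest total.

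Around these 10 genes, 121 others of the pathway were measured, in 7 lists, and 5 of them were called, all lower in knockdown-labelled regions. That is 4.13% of them, beside 3.89% of all targets. Without control region 13 the count was 11, and with any other region left out it was 3 to 6. Of the 14 genes of the PERK and ATF4 branch, 4 were called lower and none higher, with a list median of -0.18. Atf4, the transcription factor of that branch, read 2150 to 3539 (median 2612) in knockdown-labelled and 2262 to 5462 (median 3580) in control regions, a log2 difference of -0.45 (SE 0.10, limma adjusted p = 0.0112). Atf5, a related factor, read 1118 to 1847 (median 1373) in knockdown-labelled and 1306 to 4881 (median 2198) in control regions, a difference of -0.71 (SE 0.13, limma adjusted p = 0.0043). Asns, the asparagine synthetase that ATF4 raises, differed by -0.49 (SE 0.12, limma adjusted p = 0.0193). Ddit3 (CHOP), a factor linked to cell death under ER stress, differed by -0.50 (SE 0.14, limma adjusted p = 0.0423). Atf4 and Atf5 were called under each of 6 other scalings of the regions and Asns under 5, whereas Ddit3 was called under none of them. In the fits that left out 1 region at a time, Atf4, Atf5 and Asns were called in 27 of 27 and Ddit3 in 12, over regions that in part share mice. Control regions 6 and 7 held the 2 highest readings of the hypoxia target Ero1a (12983 and 5436). With both left out, Asns was at -0.45 (limma adjusted p = 0.0520) and lost its call. Atf4 at -0.40 (limma adjusted p = 0.0298), Atf5 at -0.62 (limma adjusted p = 0.0057) and Ddit3 at -0.37 (limma adjusted p = 0.0416) kept theirs.

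Within regions, Atf4 was 0.341 to 0.584 (median 0.470) times Hspa5 in knockdown-labelled and 0.417 to 0.928 (median 0.641) times in control regions. For Atf5 the ratio was 0.153 to 0.403 (median 0.237) in knockdown-labelled and 0.233 to 0.683 (median 0.363) in control regions. For Hsp90b1 it was 0.855 to 1.65 (median 1.21) in knockdown-labelled and 1.04 to 1.38 (median 1.25) in control regions. The labels thus overlapped in each ratio, and whether the ATF4 branch and the chaperones differed in their response was not tested. The hypoxia list moved with the branch: 9 of its 20 genes were called lower and none higher, with a median of -0.52, including Vegfa at -0.85 (SE 0.19, limma adjusted p = 0.0148) and Ldha at -0.53 (SE 0.11, limma adjusted p = 0.0107). With that list as a covariate, Atf4 was at -0.24 (limma adjusted p = 0.509) and Atf5 at -0.37 (limma adjusted p = 0.231). Adding the T or NK cell markers instead, they were at -0.31 (limma adjusted p = 0.243) and -0.55 (limma adjusted p = 0.172), and adding the log2 total, at -0.30 (limma adjusted p = 0.251) and -0.58 (limma adjusted p = 0.102). Both calls were lost in each of those fits, which called 0, 0 and 27 of all targets in that order, beside 763 without a covariate. The loss was therefore not particular to Atf4 and Atf5. With the hepatocyte list as a covariate, a fit that called 810 of all targets, both calls held. Atf4 was then at -0.55 (limma adjusted p = 0.0095) and Atf5 at -0.80 (limma adjusted p = 0.0095). The part of hypoxia, cell mixture and depth in these differences was not tested.

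In the other 6 lists, 1 gene was called. None of the 11 UPR sensors and transducers passed, with a median of -0.07, Ern1 at -0.14 (limma adjusted p = 0.296) and Creb3 at 0.14 (limma adjusted p = 0.187), although Creb3 was called higher under 4 of the 6 other scalings. None of the 20 other ER chaperones and cochaperones passed, with a median of 0.03. In that list Sdf2l1, a cofactor of ER DnaJ proteins, was at 0.26 (SE 0.10, limma adjusted p = 0.132) and Dnajb11, an Hspa5 cochaperone, at 0.15 (SE 0.07, limma adjusted p = 0.223), and Dnajb11 was called higher under 2 of the 6 scalings. Of 19 oxidative folding enzymes, Tmx3, a membrane-bound disulfide isomerase, was called lower at -0.19 (SE 0.05, limma adjusted p = 0.0374), in 16 of 27 fits with 1 region left out and under none of the 6 other scalings. Ero1a, the oxidase that recharges disulfide isomerases and is known as a hypoxia target, was at -0.79 (SE 0.29, limma adjusted p = 0.118), with a control median of 1488 below the high readings of regions 6 and 7. None of 12 glycoprotein quality control genes, of 23 ER-associated degradation genes or of 22 translocon, signal peptidase and oligosaccharyltransferase genes passed. Their medians were -0.06, -0.04 and -0.08.

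**Figure D5:**
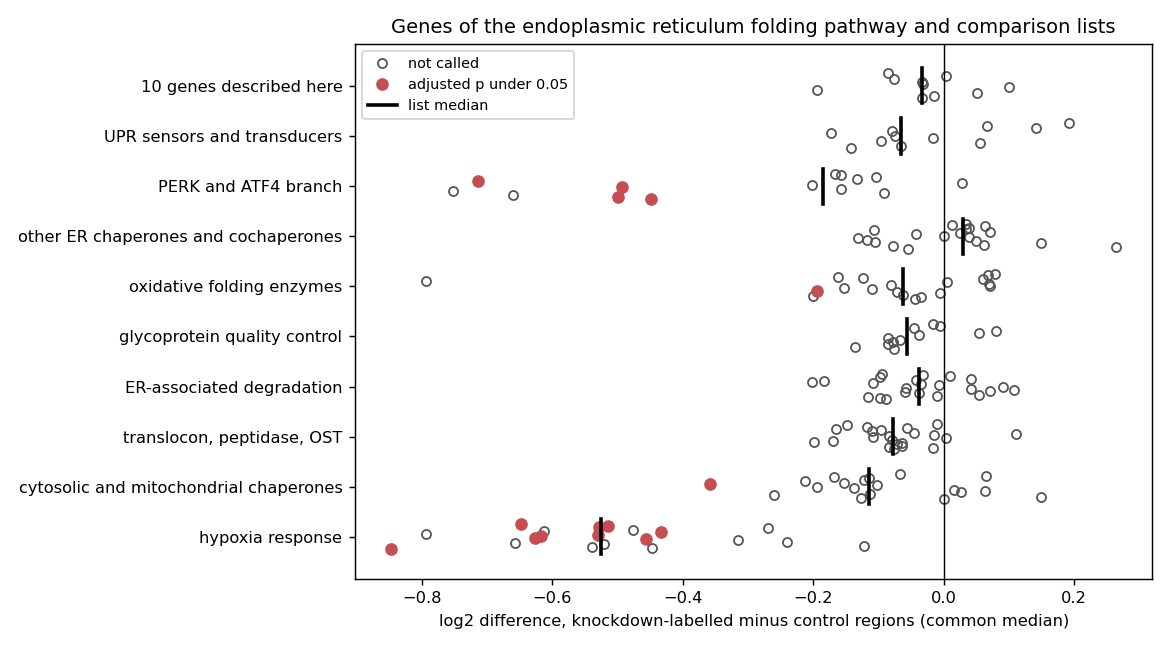
Log2 difference, knockdown-labelled minus control regions, on the common scale (horizontal axis) of each gene in the list of 10, in 7 lists of the same pathway and in 2 comparison lists; filled points passed a limma adjusted p under 0.05 and bars are list medians. The 10 genes hold no filled point and a median of -0.03, while the PERK and ATF4 branch has 4 filled points and the hypoxia list 9, all below 0.

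Cell type lists also differed between the labels beside these values. Hepatocyte markers summed to 2757 to 16214 (median 6444) in knockdown-labelled and 2692 to 8488 (median 3330) in control regions, and 6 of 18 were called higher, with Apoa2 at 1.02 (SE 0.21, limma adjusted p = 0.0086). T or NK cell markers summed to 2970 to 5142 (median 3709) in knockdown-labelled and 2395 to 3789 (median 3075) in control regions, and 6 of 16 were called higher, with Cd3d at 0.39 (SE 0.07, limma adjusted p = 0.0041). Over all targets 1.31% were called higher. Only 11 of the 18 hepatocyte and 8 of the 16 T or NK cell markers were above background, and Cd3d was not. Plasma and B cell markers, the other list of secretory cells, summed to 1806 to 9304 in knockdown-labelled and 1772 to 5558 in control regions, and none of the 12 was called. Of the other lists, 1 of 16 macrophage or Kupffer cell markers (Csf1r) and 1 of 14 fibroblast or stellate cell markers (Thy1) were called higher, and none of 12 endothelial, 13 epithelial or 12 housekeeping genes was called in either direction. Only 3 plasma and B cell, 2 endothelial and 1 epithelial markers were above background. The absence of calls in those 3 lists therefore says little of the cells. The part of these cells in the signal of the 10 genes was not tested beyond the covariate values given above.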

How the data were processed

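The deposited table holds, for each target and region, a normalized probe signal that the authors made with the GeoMx DSP Analysis Suite from sequenced tags; its version is not stated in the paper or the labels. In each region at least 99.96% of the signal values were whole multiples of 1 step, within a tolerance of 0.01, but the lowest reading was 10 to 126 steps, so no count model was run. The sum in steps served as the region total.

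Each region was scaled to the same median over all targets (236.9), and log2(value + 1) was fitted with limma 3.58.1 in R 4.3.3 (two-sided, with trend and robust estimates of the spread; p-values adjusted by Benjamini-Hochberg over 19615 targets, threshold 0.05). Differences are on this log2 scale, which understates those of low targets. Background was taken from 1125 genes of chemosensory receptors (odorant, vomeronasal, trace amine and taste). A target was above background when its mean log2 value passed percentile 95 of that list (7.63), which 10799 did. Gene positions are from GENCODE on GRCm38 and promoter windows from RefSeq on GRCm38.p6. Descriptions and figures were made in Python 3.11.15 with numpy 2.4.6, pandas 2.3.3 and matplotlib 3.10.9.

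The 10 genes, the 7 pathway lists and the hypoxia, cytosolic chaperone, housekeeping and 7 cell type lists were chosen with earlier results of these data known. Genes named beside the 10 and Cmtm6 came from a rule: in each list up to 4 by smallest p and 2 by highest level, and for Hspa5, Xbp1, Herpud1 and Dnajb9 the 5 targets with the highest r. Creld2, Derl3, Dnajc3, Ero1b and Syvn1 are named for a promoter match, and Des for the stain that defined the segments. Probe levels were not compared between genes as measures of RNA amount, since probes differ in efficiency. On simulated data with the same number of regions per label and 19615 targets, limma recovered 48% of 50 genes changed 1.2-fold. It recovered 98% at 1.5-fold and 100% at 2-fold and 3-fold, and called 0.0412% of unchanged targets. Since no label names the mice, the simulation held no sharing of mice between regions. The real regions in part share mice, so these rates may overstate recovery and error control there, including for the 10 genes. Regions were the units of every test; no label gives a batch.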

Additional observations from a re-analysis of the deposited data

How the results depend on the processing

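The limits are these: regions shared mice that the labels do not name, each label had been normalized alone, and depth differed between the labels. Of the 10 genes, the differences of Calr (-0.45), Pdia3 (-0.41) and Dnajb9 (-0.50) reversed on the values as deposited, as did those of Creb3 (-0.36), Creb3l2 (-0.31), Sdf2l1 (-0.24), Dnajb11 (-0.36) and Cd3d (-0.11), by construction of the separate scaling. On that setting 10 of the 10 genes were called, all lower, with 19236 of all targets and 121 other pathway genes. Quantile normalization called 1 of the 10, Pdia3 (higher), and 8 other pathway genes. Of 440 fits of the 10 genes under other settings, 428 were on the same side of the threshold; the rest were these 11 and Canx without control region 13.

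The 763 calls over all targets became 433 at equal upper quartiles, 403 at equal totals, 193 with housekeeping scaling, 355 after background subtraction, 27 with the log2 total as a covariate, 0 each with the hypoxia list and the T or NK cell markers as covariates, 296 without control regions 6 and 7, and 64 at an unadjusted p under 0.05 with a fold over 1.5. Of those calls 33.6% were higher in knockdown-labelled regions, against 50.8% at equal upper quartiles, 63.8% at equal totals, 59.5% under TMM, 47.6% under quantile normalization, 44.6% with housekeeping scaling and 51.5% after background subtraction. The 5 other pathway genes called became 3 with TMM, housekeeping scaling, background subtraction or without control regions 6 and 7, 8 with the hepatocyte list and 9 with the fibroblast list as a covariate, and 0 with the log2 total, the hypoxia or the T or NK cell list. The cause of these shifts was not tested. The T or NK cell and fibroblast covariates were chosen after seeing the data.

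Leaving out 1 region at a time gave 0 to 1 of the 10 genes called (0 to 0 higher, 0 to 1 lower), 348 to 1442 targets in all and 3 to 11 other pathway genes. Control region 13 gave the highest of each (Canx was the gene called), and controls 2, 3, 5, 6 and 8 and knockdown-labelled region 8 moved the count over all targets by more than 1.5 times (504, 359, 504, 394, 437 and 348). No paired analysis was possible because the labels give the groups no shared replicate numbers.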

Other observations

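Outside the 10 genes, ERSE was found in 19 other measured genes. Of these, 5 were in the pathway lists: Creld2, Derl3, Dnajc3, Ero1b and Syvn1. Creld2, an ER protein raised in stress, differed by -0.04 (SE 0.09, limma adjusted p = 0.829), Dnajc3, the cochaperone p58IPK, by 0.06 (SE 0.08, limma adjusted p = 0.713), and Syvn1, the ubiquitin ligase of ER-associated degradation, by -0.10 (SE 0.08, limma adjusted p = 0.492). With limma, 0 of the 19 were called and 2 had an unadjusted p under 0.05, and 10 of the 19 were above background.

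Among 19 measured cytosolic and mitochondrial chaperones, the median difference was -0.11 and 1 gene was called. Hspa9, the Hsp70 of the mitochondrial matrix, was lower in knockdown-labelled regions by 0.36 on the log2 scale (SE 0.10, limma adjusted p = 0.0348), and was called under 4 of the 6 other scalings. Its cytosolic relative Hspa8 differed by 0.00 (SE 0.10, limma adjusted p = 1.00), and Hsp90ab1, the cytosolic relative of Hsp90b1, by -0.11 (SE 0.09, limma adjusted p = 0.494). Adding the T or NK cell markers as a covariate, Hspa9 was at -0.14 (limma adjusted p = 0.548), in a fit that called 0 of all targets.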
